A study of Macaca fascicularis with 2 samples.

Results

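Immediate early and early activation genes were described here in CD4+CD8+ DP (double positive) T cells from the blood of a cynomolgus monkey. The genes were taken from a fixed set of 10 symbols, by name and not by a threshold on their values. Of these, 9 were found among the 29324 genes of the files: FOS (ENSMFAG00000014606), FOSB (ENSMFAG00000038029), JUNB (ENSMFAG00000007511), JUND (ENSMFAG00000040737), EGR1 (ENSMFAG00000027911), DUSP1 (ENSMFAG00000044045), NR4A1 (ENSMFAG00000045297), CD69 (ENSMFAG00000045779) and NFKBIA (ENSMFAG00000017605). JUN was not among the symbols and was not analysed here. Each of the 9 symbols stood on 1 row of the table, and no coordinates are given because no genome of the files' build was used.

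Immediate early genes are transcribed within minutes of a signal at the cell surface, from promoters whose factors are already present, and their RNAs are short-lived. FOS and FOSB join JUN family proteins such as JUNB and JUND in the AP-1 transcription factors, while EGR1 and NR4A1 are transcription factors of their own kind that follow antigen receptor signals in T cells and B cells. DUSP1, a phosphatase that switches off MAP kinases, and NFKBIA, the inhibitor that holds NF-κB in the cytoplasm, are induced by the pathways they restrain. CD69 is an early surface marker of activation that keeps lymphocytes in tissue. Handling of cells, for example tissue dissociation or bead isolation, is also known to induce these genes.

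The cells came from 1 animal, untreated and 10 years old, whose fresh blood mononuclear cells were passed over CD4 beads and then over CD8 beads. They gave 1 preparation with a 5′ gene library and a library of CD4 and CD8α antibody tags from the same barcodes. There were no replicates, so no test was made. Every interval below is a 95% interval of counting error only, and it does not say how far another animal would differ. It also leaves out the spread of UMIs between cells of a group, so levels whose intervals do not overlap are not thereby shown to differ. A share is the percent of cells with at least 1 UMI (a unique molecular identifier, which marks 1 captured RNA molecule), with an exact Clopper-Pearson interval. A level is the sum of UMIs of a gene in a group per 1000000 gene UMIs (CPM), with an exact Poisson interval. Levels were compared between groups of cells, not between genes.

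Of 8953 barcodes, 8830 cells were kept, with 502 to 25084 gene UMIs and a median of 3145. Clusters were named from markers, with the early genes left out of the clustering so that they could not form the clusters. Of the related early genes listed below, ICOS, CD40LG and IL2RA were also among the markers that named the clusters. This gave 5228 naïve-like, 1281 cytotoxic-like, 830 helper-like and 768 FOXP3-positive cells, at a median depth of 2859, 3601, 4676 and 3555 UMIs. These are called the 4 classes below, and 99.9% of their cells held a CD3 UMI. All 6 naïve markers, all 15 cytotoxic markers and all 4 FOXP3-positive markers were detected in the class that bears their name, and 13 of 13 helper markers were. The clusters were named from these markers, so their detection is no separate test of the names. Detection also did not separate the classes, because all 6 naïve and all 4 FOXP3-positive markers were detected in each of the 4 classes. Of the 15 cytotoxic markers, 12 to 14 were detected in the other classes, and of the 13 helper markers, 10 to 13 were. Outside the 4 classes stood 162 B-like cells, 19 monocyte-like cells, 50 cycling cells, 31 innate-like cells and 461 unnamed cells. The label of the sample is DP T cells, yet 32.7% of the B-like cells held a CD3 UMI and all 8 B lineage markers were detected in them, at a summed level of 4773 CPM against 17.4 to 62.8 CPM in the 4 classes. The tag thresholds were 144 UMIs for CD4 and 419 UMIs for CD8. They placed 5758 cells in CD4hiCD8lo, 2543 in CD4hiCD8hi, 418 in CD4loCD8hi and 111 in CD4loCD8lo, of which 68 were B-like. To compare shares, each cell was thinned to 2200 UMIs, which left out 754 shallower cells.

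FOS and DUSP1 were detected in nearly every cell of this blood preparation. FOS was found in 96.7% of the 8830 cells and DUSP1 in 92.9%, before thinning. CD69 was found in 62.1%, JUNB in 53.0%, NFKBIA in 50.3% and FOSB in 31.0% of cells. JUND was found in 12.1%, NR4A1 in 4.80% and EGR1 in 4.29%. Thus FOS and DUSP1 marked almost all cells, CD69, JUNB and NFKBIA about every other cell, and EGR1 and NR4A1 few cells. No cell type of the preparation lacked FOS or DUSP1, so no class could serve as the background of free RNA for them.

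FOS, the founding member of the FOS family of AP-1 subunits, was highest in helper-like cells among the 4 classes and lowest in cytotoxic-like cells. Its level was 3442 CPM (3386 to 3498) in helper-like, 2942 CPM (2916 to 2969) in naïve-like, 2851 CPM (2791 to 2911) in FOXP3-positive and 2045 CPM (2006 to 2084) in cytotoxic-like cells. Per thinned cell, the median was 7, 5, 5 and 4 FOS UMIs in the same order, and the 95th percentile in naïve-like cells was 16. The share of thinned cells with FOS fell in a narrow range, from 89.7% in cytotoxic-like to 96.5% in naïve-like cells. FOSB, its close relative, had nearly the same level in naïve-like (134 CPM) and helper-like cells (132 CPM), with 114 CPM in FOXP3-positive and 88.9 CPM in cytotoxic-like cells.

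JUNB and JUND, the JUN family partners, ordered the classes differently. JUNB was 531 CPM (506 to 558) in FOXP3-positive, 479 CPM (459 to 501) in helper-like, 326 CPM (317 to 335) in naïve-like and 230 CPM (217 to 243) in cytotoxic-like cells. Its thinned share was 53.2%, 55.5%, 41.0% and 34.6% in that order. The intervals of neighbouring levels did not overlap, but JUNB UMIs per thinned cell were spread wider than counting error gives. Their variance over the mean was 2.36 in FOXP3-positive and 1.93 in helper-like cells, so the order of these classes is uncertain. JUND was 52.3 CPM (45.6 to 59.7) in helper-like cells, above the other classes, whose levels from 32.7 to 37.0 CPM overlapped in their intervals.

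**Figure D1:**
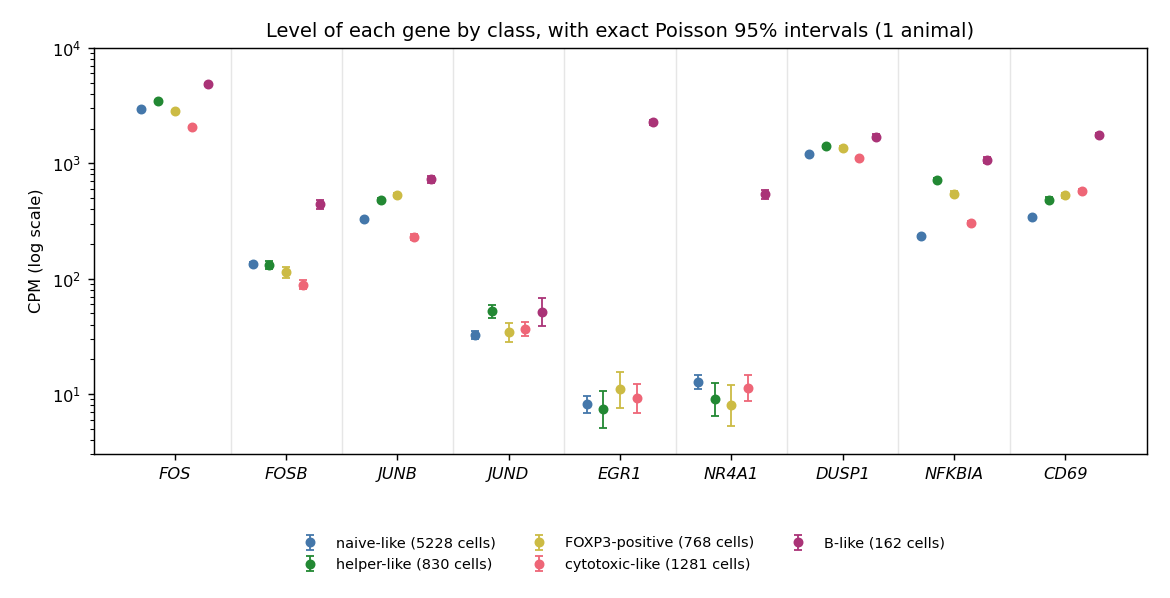
Levels of the 9 genes in CPM (log axis) by class, with exact 95% Poisson intervals of counting error from 1 animal. EGR1 lay between 7.44 and 11.0 CPM in the 4 classes against 2257 CPM in B-like cells, whereas FOS lay between 2045 and 3442 CPM in the 4 classes against 4838 CPM.

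Of the genes that restrain signalling, NFKBIA separated the classes most. It was 722 CPM (697 to 749) in helper-like, 546 CPM (520 to 573) in FOXP3-positive, 304 CPM (289 to 319) in cytotoxic-like and 234 CPM (226 to 241) in naïve-like cells. Its thinned share was 66.9% (63.6 to 70.1), 52.6% (48.9 to 56.3), 38.9% (36.2 to 41.7) and 33.7% (32.4 to 35.1), so both the level and the share put the classes in 1 order. DUSP1 varied little. Its level was 1404 CPM in helper-like, 1358 CPM in FOXP3-positive, 1198 CPM in naïve-like and 1112 CPM in cytotoxic-like cells, and its thinned share was 85.6% to 90.3%.

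CD69 was highest in cytotoxic-like cells among the 4 classes and lowest in naïve-like cells. The level was 575 CPM (555 to 596) in cytotoxic-like, 527 CPM (502 to 553) in FOXP3-positive, 484 CPM (463 to 505) in helper-like and 343 CPM (334 to 352) in naïve-like cells. The thinned share was 67.2% in cytotoxic-like cells against 45.6% in naïve-like cells. The intervals of FOXP3-positive and helper-like cells overlapped. The order of classes did not hold for the clusters inside them. CD69 was 616 and 514 CPM in clusters 2 and 4 of cytotoxic-like cells, and 620 and 419 CPM in clusters 7 and 6 of FOXP3-positive cells. An unnamed cluster of 263 cells, led by GZMK and EOMES, had 709 CPM of CD69 (658 to 762), above each of the 4 classes.

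EGR1 and NR4A1 were rare in all 4 classes. EGR1 held 131 UMIs in the 5228 naïve-like cells, and its level was 7.44 to 11.0 CPM over the 4 classes with overlapping intervals. NR4A1 was 12.8 CPM (11.1 to 14.7) in naïve-like, 11.3 CPM (8.64 to 14.6) in cytotoxic-like, 9.11 CPM (6.45 to 12.5) in helper-like and 8.12 CPM (5.25 to 12.0) in FOXP3-positive cells, and neighbouring classes could not be separated. EGR1 was not higher in the T cells that also held B lineage RNA. In cells of the 4 classes, EGR1 was 9.07 CPM (7.91 to 10.4) where no B lineage UMI was present (6990 cells) and 5.91 CPM (3.86 to 8.66) where at least 1 was present (1117 cells). NR4A1 was 10.9 CPM (9.62 to 12.3) and 14.8 CPM (11.4 to 18.8) in the same cells. There were 0.183 EGR1 UMIs per B lineage UMI in the 4 classes against 0.493 in B-like cells, whereas for NR4A1 the ratio was 0.245 in the 4 classes against 0.117 in B-like cells. The B lineage UMIs are a weak gauge of free B cell RNA. Only 3 of 8 B lineage markers were detected in naïve-like cells, and the summed level ran from 17.4 CPM in cytotoxic-like to 62.8 CPM in naïve-like cells. The part of free RNA in these values was not tested.

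Compared with naïve-like cells, helper-like cells held more RNA of the early genes in sum. A gene is counted as higher or lower below when its level differed by at least 1.5-fold and both groups together held at least 50 UMIs. In helper-like cells, 2 of the 9 genes were higher and 0 were lower, where 15.3% and 11.3% of the 9212 genes compared were. NFKBIA had a log2 ratio of 1.63 (1.56 to 1.70) and JUND one of 0.68 (0.44 to 0.91). JUNB, at 0.56, and CD69, at 0.50, stayed under the limit. Summed over the 9 genes, the level was 6732 CPM against 5230 CPM, a log2 ratio of 0.36 (0.34 to 0.38). Without FOS, which held 14348 of the 28067 summed UMIs in helper-like cells and 47038 of 83610 in naïve-like cells, it was 0.52 (0.50 to 0.55).

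In FOXP3-positive cells, 3 of the 9 genes were higher than in naïve-like cells, where 10.9% of the 9051 genes compared were, and 1 was lower, where 9.25% were. The log2 ratio was 1.23 (1.14 to 1.31) for NFKBIA, 0.70 (0.62 to 0.78) for JUNB and 0.62 (0.54 to 0.70) for CD69. NR4A1 was the lower gene at -0.66 (-1.32 to -0.06), on 25 UMIs in FOXP3-positive cells. The summed level was 5981 CPM, a log2 ratio of 0.19 (0.17 to 0.22), or 0.45 (0.42 to 0.48) without FOS. Only part of this class carried FOXP3 RNA, which was found in 325 of 768 cells. Cells of the class with a FOXP3 UMI had 2368 CPM of FOS against 3197 CPM in those without one, 489 against 562 CPM of JUNB, and 454 against 579 CPM of CD69. NFKBIA was alike in both, at 550 and 543 CPM. With only the FOXP3 UMI cells the log2 ratios over naïve-like cells were 0.58 for JUNB and 0.40 for CD69, both under the limit. At clustering resolution 0.4 they were 0.22 and 0.30, and the summed ratio turned to -0.06.

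In cytotoxic-like cells the sum of the 9 genes was lower than in naïve-like cells, while the sum of the 8 genes other than FOS was not. The summed level was 4412 CPM, a log2 ratio over naïve-like cells of -0.25 (-0.27 to -0.22). FOS held 10830 of the 23370 summed UMIs in cytotoxic-like cells, and the other 8 genes summed to 2368 CPM (2326 to 2409) against 2288 CPM (2264 to 2311), a log2 ratio of 0.050 (0.020 to 0.079). CD69 held 3046 of the 12540 UMIs of these 8 genes in cytotoxic-like cells and 5486 of 36572 in naïve-like cells. A sum without both FOS and CD69 was not made. Of the 8 genes, FOSB, JUNB, DUSP1 and NR4A1 had ratios below 0, and JUND, EGR1, CD69 and NFKBIA above 0. CD69, at 0.74 (0.68 to 0.81), was the 1 higher gene of 9, where 25.9% of 9335 genes were higher. FOSB, at -0.59 (-0.74 to -0.44), was the 1 lower gene, where 15.0% were lower. It lay at the limit of 1.5-fold, and with at most 10% mitochondrial UMIs its ratio was -0.58. FOS, at -0.53, and JUNB, at -0.51, stayed just under the limit, and NFKBIA was 0.38. Against helper-like cells, 0 genes were higher in cytotoxic-like cells (18.7% of 8243 genes were) and 3 were lower (8.77% were): NFKBIA at -1.25, JUNB at -1.06 and FOS at -0.75. CD69, at 0.25 (0.17 to 0.33), was thus the abundant early gene with more RNA in cytotoxic-like than in helper-like cells while FOS, JUNB, DUSP1 and NFKBIA had less.

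**Figure D2:**
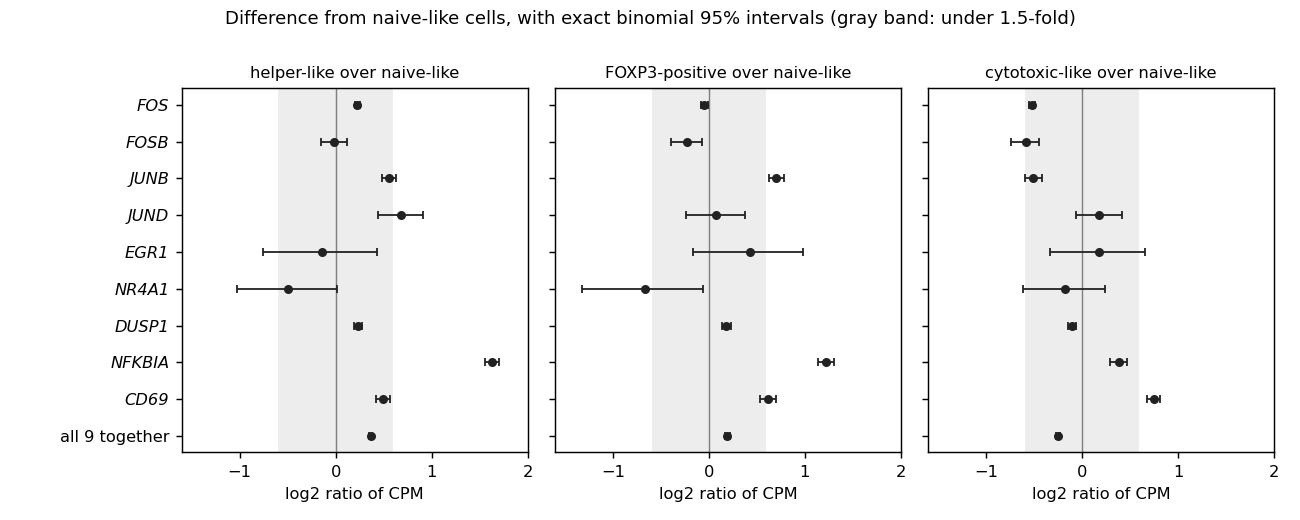
Log2 ratio of CPM of each gene and of the 9 genes together in helper-like, FOXP3-positive and cytotoxic-like cells over naïve-like cells, with exact 95% intervals of the split of UMIs and a gray band for ratios under 1.5-fold. NFKBIA lay at 1.63 and 1.23 in the first 2 classes, and CD69 at 0.74 was the gene past 1.5-fold upwards in cytotoxic-like cells.

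The clusters inside a class differed in these genes as well. The 2 FOXP3-positive clusters had a summed level of 6839 CPM (cluster 7, 362 cells) and 4988 CPM (cluster 6, 406 cells), with JUNB at 660 against 382 CPM. JUNB was the 1 gene of 9 that was higher, at a log2 ratio of 0.79, where 27.0% of 5251 genes were, and 0 were lower, where 4.44% were. EGR1 and NR4A1 had too few UMIs there. In the 2 large naïve-like clusters, NR4A1 was 17.0 CPM in cluster 1, which was led by CHI3L2 and CD1A, and 9.92 CPM in cluster 0, which was led by DNTT. That log2 ratio of 0.78 (0.34 to 1.22) was the 1 higher gene of 9, where 4.54% of 8544 genes were. NFKBIA, at 167 against 289 CPM, was the 1 lower gene with -0.79 (-0.89 to -0.68), where 1.21% were. Between the 2 clusters of a class, 0 of the 7 genes with enough UMIs in helper-like cells and 0 of the 8 in cytotoxic-like cells passed the limit in either direction, where 8.9% and 9.61% of genes did upwards and downwards in helper-like cells and 5.06% and 6.73% did in cytotoxic-like cells.

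The tag gates, which hold different mixes of classes, were compared next. Of the 5758 cells in CD4hiCD8lo, 4242 were naïve-like and 358 cytotoxic-like, and of the 2543 cells in CD4hiCD8hi, 839 and 708 were. Over all cells of the gates, 0 of the 9 genes were higher in CD4hiCD8hi than in CD4hiCD8lo, where 10.0% of 10028 genes were, and 0 were lower, where 4.6% were. The summed level was 5591 against 5549 CPM, and without FOS it was 2834 against 2592 CPM, a log2 ratio of 0.13 (0.11 to 0.15). NFKBIA came nearest to the limit, with 461 against 328 CPM and a log2 ratio of 0.49 (0.44 to 0.55). FOS was 2757 against 2956 CPM, and CD69 was 493 against 439 CPM.

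The same gates were then compared inside 1 class at a time. Within naïve-like cells, NFKBIA was 239 CPM in CD4hiCD8hi and 233 CPM in CD4hiCD8lo, a log2 ratio of 0.04 (-0.08 to 0.16), and JUNB was 287 against 337 CPM at -0.23. The summed ratio was -0.09 (-0.12 to -0.07), or 0.03 where cells were placed by marker UMIs instead of clusters. Of the 9 genes, 0 were past the limit in either direction, where 1.71% of 8696 genes were higher and 2.92% lower. Within cytotoxic-like cells, 0 of the 8 genes with enough UMIs were past the limit, where 3.82% of 6657 genes were higher and 2.4% lower. There CD69 was 540 CPM in CD4hiCD8hi against 677 CPM in CD4hiCD8lo, a log2 ratio of -0.33 (-0.44 to -0.21), while the pooled gates had 0.17. This class is made of cluster 2, with a median CD8 tag of 480.5 UMIs and 616 CPM of CD69, and cluster 4, with 1746 UMIs and 514 CPM. CD4hiCD8lo held 327 and 31 cells of them, and CD4hiCD8hi held 507 and 201. Inside cluster 2 alone the CD69 ratio was -0.23 (-0.37 to -0.10), and inside cluster 4 alone it was -0.41 (-0.71 to -0.11). Within helper-like cells NFKBIA had a log2 ratio of 0.19 (0.08 to 0.31), and within FOXP3-positive cells one of -0.09 (-0.25 to 0.06). In both classes 0 of the 7 genes with enough UMIs were past the limit. The background was 4.57% higher and 2.37% lower within helper-like cells, and 3.95% higher and 3.89% lower within FOXP3-positive cells. Over the 4 classes together, 0 of 9 were past it, where 9.7% of genes were higher and 4.05% lower, and NFKBIA had 0.51 (0.46 to 0.57).

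Cells of a class were also divided into 4 groups of like size by their CD8 tag. From the lowest to the highest group of cytotoxic-like cells, CD69 was 644, 597, 557 and 522 CPM, and the intervals of the first (599 to 692) and the last (486 to 559) did not overlap. Clusters 2 and 4 differ in both the CD8 tag and CD69, and their part in this order was not tested. Inside cluster 4, CD69 was 556 CPM (502 to 614) in CD4loCD8hi, with a median CD8 tag of 1872 UMIs. It was 472 CPM (434 to 512) in CD4hiCD8hi of that cluster, with 1671 tag UMIs, and 629 CPM (516 to 759) in CD4hiCD8lo, with 335. The intervals of CD4loCD8hi and CD4hiCD8hi overlapped. These gates are split by the CD4 tag, so they do not show how CD69 runs along the CD8 tag. In CD4loCD8hi of cluster 2 CD69 was 269 CPM (129 to 494) on 10 UMIs, against 582 CPM in CD4hiCD8hi. In naïve-like cells FOS was 3012, 2979, 3046 and 2760 CPM, so that only the top group, which runs from 362 tag UMIs upwards and spans the threshold of 419, stood below the others. JUNB in the same groups was 366, 320, 345 and 281 CPM.

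The CD4loCD8hi gate was lower than CD4hiCD8lo in the sum of the 9 genes, at 4530 against 5549 CPM (log2 ratio -0.29, -0.33 to -0.26), or -0.13 (-0.18 to -0.09) without FOS. JUNB was lower at -0.64 (-0.79 to -0.49), with 232 against 361 CPM, and NR4A1 at -0.62 (-1.33 to 0.01), an interval that included 0. With thresholds at the midpoints NR4A1 turned to 0.67. That made 2 lower genes of 9, where 14.0% of 9416 genes were lower. EGR1 was the 1 higher gene at 0.65 (0.35 to 0.93), where 13.0% were, and it turned to -1.21 without cells near a threshold. The EGR1 value of the gates came mostly from B-like cells, which held 78.0% of the EGR1 UMIs in CD4hiCD8lo, 77.6% in CD4hiCD8hi, 76.1% in CD4loCD8hi and 98.7% in CD4loCD8lo. Over the 4 classes alone, EGR1 was 8.22, 8.32 and 15.1 CPM in the first 3 gates, against 45.8, 57.4 and 71.7 CPM over all cells. EGR1 over the 4 classes was still higher in CD4loCD8hi, at 0.87 (0.12 to 1.56), but on 20 UMIs. It was the 1 higher gene of 9, where 13.0% were, and 0 were lower, where 14.6% were. JUNB then had -0.52 (-0.68 to -0.36), under the limit, and NR4A1 -0.21 (-1.11 to 0.57). Within naïve-like cells alone, EGR1 was higher at 0.79 (-0.56 to 1.89) on 7 UMIs, where 6.73% of genes were, and NR4A1 lower at -0.77 (-2.66 to 0.62) on 4 UMIs, where 28.2% were. Of the 129 naïve-like cells of CD4loCD8hi, 115 were of cluster 10, which had 10 of the 4242 in CD4hiCD8lo, so that gate and cluster cannot be told apart there. Within cytotoxic-like cells alone, 0 of the 7 genes with enough UMIs were higher, where 3.75% were, and JUND was lower at -0.61 (-1.42 to 0.16), where 5.75% were. All 3 intervals included 0.

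**Figure D3:**
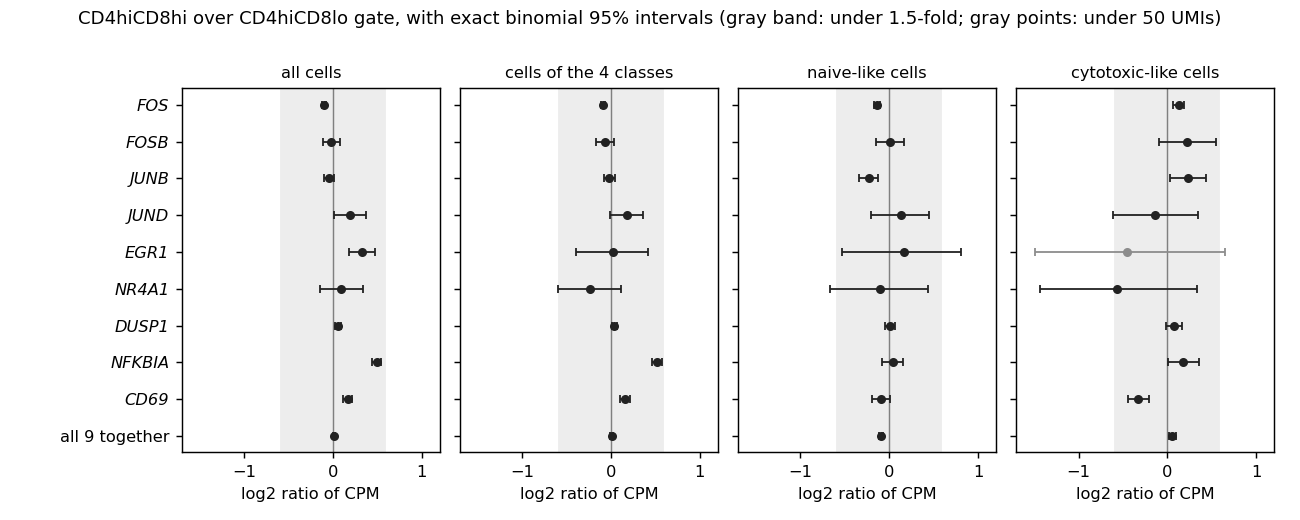
Log2 ratio of CPM of each gene and of the 9 genes together in CD4hiCD8hi over CD4hiCD8lo, over all cells, cells of the 4 classes, naïve-like cells and cytotoxic-like cells, with exact 95% intervals, a gray band for ratios under 1.5-fold and gray points under 50 UMIs. NFKBIA lay at 0.49 over all cells and at 0.04 within naïve-like cells, and CD69 lay at 0.17 over all cells and at -0.33 within cytotoxic-like cells.

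How many of the 9 genes a single cell held was counted at the common depth of 2200 UMIs. Of the 8076 thinned cells, 80.1% (79.2 to 81.0) held at least 3 of the 9. The share was 90.2% (87.9 to 92.1) in helper-like, 84.7% (81.8 to 87.2) in FOXP3-positive, 80.9% (78.6 to 83.0) in cytotoxic-like and 77.0% (75.7 to 78.2) in naïve-like cells, and the intervals of FOXP3-positive and cytotoxic-like cells overlapped. By gate it was 82.1% (80.5 to 83.6) in CD4hiCD8hi, 79.4% (78.2 to 80.4) in CD4hiCD8lo and 75.6% (71.0 to 79.7) in CD4loCD8hi. Cells with 0 of the 9 numbered 10 of 4718 naïve-like, 3 of 816 helper-like, 2 of 730 FOXP3-positive and 10 of 1248 cytotoxic-like cells.

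The number of genes per cell was spread a little more widely than the separate shares alone would give. The SD was 1.16 genes in naïve-like cells where independent detection gives 1.07, and 1.22 against 1.08 in helper-like cells. At the upper end, 3.46% of naïve-like cells held at least 6 of the 9 genes where the shares give 2.35%, and 10.2% of helper-like cells did where the shares give 7.56%. At the lower end, fewer cells held at least 3 genes than the shares give, with 77.0% against 79.6% in naïve-like cells. Cells with many and cells with few of the genes were thus both more common than independent detection gives.

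**Figure D4:**
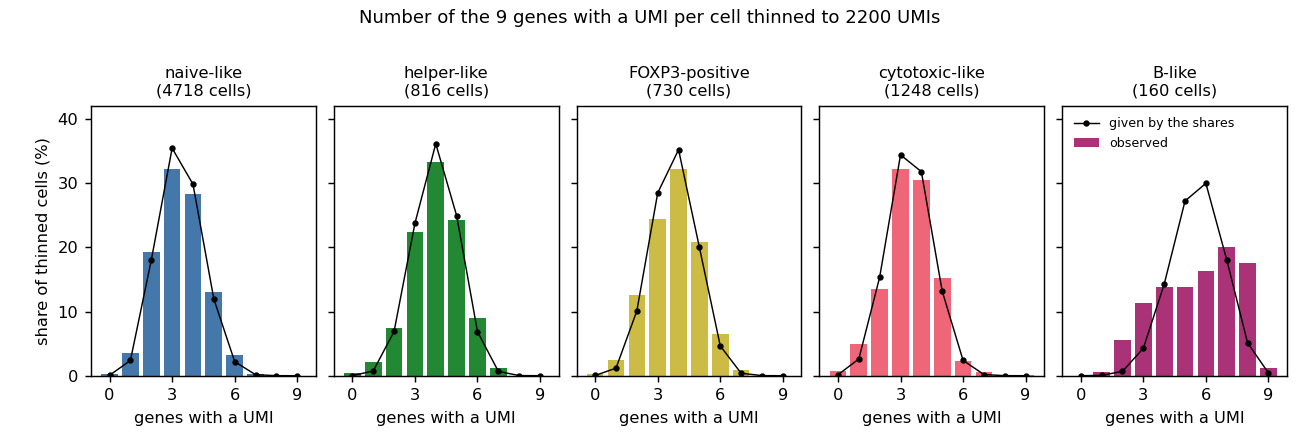
Percent of thinned cells (2200 UMIs each) by how many of the 9 genes they held, for the 4 classes and B-like cells, with lines for the distribution that the separate shares give. Helper-like cells had a mean of 4.01 genes against 3.38 in naïve-like cells, and the B-like cells, with a mean of 5.58, were spread much wider than their line.

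Co-detection of pairs was taken within each of the 4 classes and summed over them. The number of cells with both genes was divided by the number that the 2 shares give, so that 1 stands for independent detection. Over the 36 pairs the median ratio was 1.04, and 34 pairs lay above 1. Of the 35 pairs for which the shares gave at least 10 cells, 4 had Poisson intervals above 1 and 0 had intervals below 1. Such intervals are too wide where both genes are common, so the 4 is not a count of all pairs above independent detection. The FOS family member FOSB and its partner JUNB were found together in 759 cells against 701, a ratio of 1.08 (1.01 to 1.16). FOSB and DUSP1 had 1.06 (1.01 to 1.11). The 2 other pairs held NR4A1, with 24 cells against 13.2 for JUND and NR4A1, a ratio of 1.81 (1.16 to 2.70), and 94 cells against 75.6 for JUNB and NR4A1, a ratio of 1.24 (1.005 to 1.52). EGR1 and NR4A1 were found together in 7 cells where the shares give 3.07, with an interval from 0.917 to 4.70. FOS and DUSP1 were found in nearly all cells, so their ratio had little room above 1. It was 1.01, with 6311 cells against 6259, and its Poisson interval is too wide to judge it. On the level scale, over 7512 thinned cells with class means taken away, the 2 genes had the largest Pearson r of the 36 pairs, at 0.254, followed by FOS and JUNB at 0.191 and FOS and FOSB at 0.156. These are weak values over cells of 1 library and are given as a description.

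**Figure D5:**
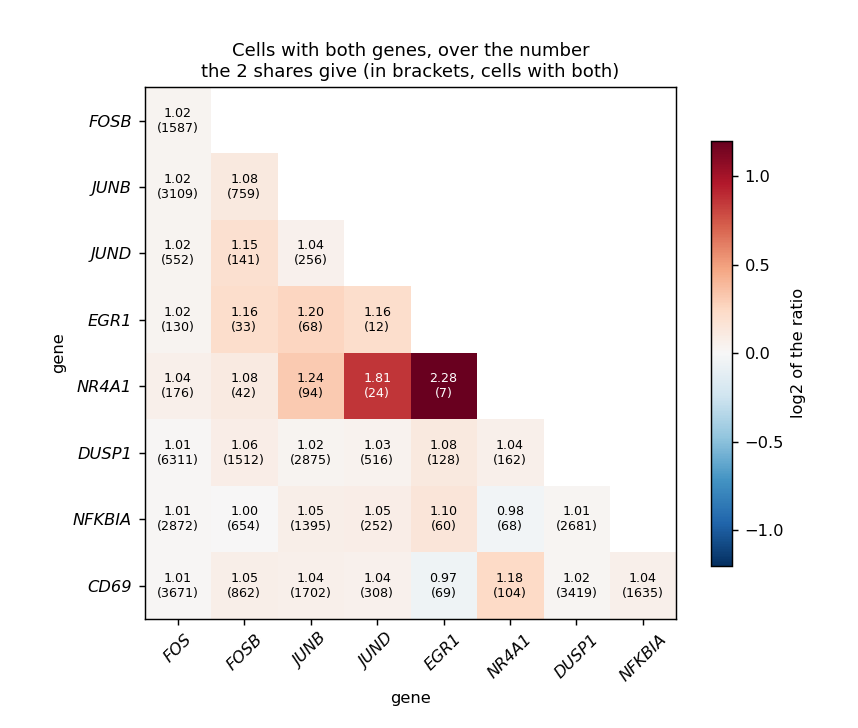
Ratio of cells with both genes to the number given by the separate shares, for the 36 pairs of genes over the 4 classes at 2200 UMIs per cell, with the number of cells with both. Most pairs lay near the median of 1.04, and the pair of EGR1 and NR4A1 with 2.28 rested on 7 cells.

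Outside the T cell classes, 7 of the 9 early genes were higher in the 162 B-like cells, EGR1 and NR4A1 by the most. These cells held 3.16% of all gene UMIs but 85.9% of the EGR1 UMIs and 59.3% of the NR4A1 UMIs. EGR1 was 2257 CPM (2165 to 2352) in B-like cells and 8.59 CPM (7.54 to 9.73) over the 4 classes, a log2 ratio of 8.04 (7.85 to 8.23). NR4A1 was 538 against 11.5 CPM, a log2 ratio of 5.55 (5.35 to 5.75). CD69 was 1763 CPM, with a ratio of 2.05, FOSB 442 CPM, with 1.85, and NFKBIA 1073 CPM, with 1.61. JUNB followed at 1.05 and FOS at 0.77. That made 7 higher genes of 9 and 0 lower genes, where 18.2% of 9985 genes were higher and 21.2% were lower. DUSP1, at 0.47, and JUND, at 0.51, were the others. EGR1 was itself among the 10 leading genes of this cluster, although it was left out of the clustering. The 19 monocyte-like cells had 649 CPM of EGR1 (516 to 806), 649 CPM of FOSB and 2952 CPM of NFKBIA, the last above the 1073 CPM of B-like cells.

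The B-like cells were not uniform. An EGR1 UMI was found in 115 of the 162 cells, and 47 held none. Cells with EGR1 had 5887 CPM of FOS against 1995 CPM in those without, 2274 against 378 CPM of CD69, 938 against 159 CPM of JUNB, 714 against 59.2 CPM of NR4A1, and 560 against 122 CPM of FOSB. NFKBIA, at 1184 against 774 CPM, and DUSP1, at 1925 against 1096 CPM, differed less. The median depth was 5405 UMIs in cells with EGR1 and 4597 UMIs in cells without. At 2200 UMIs per cell, 58% of the 100 cells with EGR1 held NR4A1 against 11.7% of the 60 cells without, 68% against 21.7% held FOSB, and 78% against 33.3% held JUNB. The ratios of cells with both genes to the number given by the shares were 1.43 (1.08 to 1.85), 1.34 (1.04 to 1.70) and 1.27 (1.01 to 1.59). For NFKBIA it was 0.97 (0.75 to 1.23), with 69% against 75%. The SD of genes per cell was 1.90 in B-like cells where the shares give 1.26, and 55.0% held at least 6 of the 9.

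B-like cells of the tag gates were also set side by side. In the 68 B-like cells of CD4loCD8lo, of which 7.35% held a CD3 UMI, EGR1 was 3094 CPM and NR4A1 870 CPM. In the 60 cells of CD4hiCD8lo, of which 30% held one, EGR1 was 1844 CPM and NR4A1 377 CPM. The 28 cells of CD4hiCD8hi had a median of 9483 UMIs, a CD3 UMI in 92.9% and a median doublet score of 0.197 against 0.0997 over all cells, and their EGR1 was 1864 CPM and NR4A1 423 CPM. The score is from Scrublet, which called 0 doublets and was taken not to have worked, so it is given only as a description. EGR1 was highest in CD4loCD8lo, and it was alike in CD4hiCD8lo and CD4hiCD8hi. Cell by cell, a CD3 UMI was found in 37.4% of the B-like cells with an EGR1 UMI and in 21.3% of those without. At 2200 UMIs, the 53 B-like cells with a CD3 UMI held a mean of 5.79 of the 9 genes and the 107 without one 5.48. The part of doublets of B and T cells in these values was not tested.

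Related early genes, in 7 lists of 119 genes of which 109 were in the files, were set beside the members. In helper-like over naïve-like cells, 37 of 83 list genes were higher and 3 lower, where 15.3% and 11.3% of all genes were, with a median log2 ratio of 0.52 where the median of all genes was -0.0028. Higher were 3 of 4 AP-1 relatives, 7 of 11 other early transcription factors, 7 of 16 genes of RNA decay and feedback, 5 of 12 NF-κB genes, 6 of 9 surface and cytokine genes, 2 of 12 heat shock genes and 7 of 19 upstream kinases and factors. BHLHE40, a transcriptional repressor, led with 94.3 against 0.188 CPM. Its log2 ratio of 8.97 (7.41 to 11.3) rests on 3 UMIs in naïve-like cells. TNFRSF18 (GITR) followed at 7.33 (5.75 to 9.63), also on 3 UMIs, and TNFRSF4 (OX40) at 5.83 (5.13 to 6.64). The lower genes were CD38, a surface NAD hydrolase, at -1.48, the chemokine receptor CXCR4 at -0.86 and the antiproliferative BTG2 at -0.69. ICOS and CD40LG, of the surface list, are markers of the helper-like class, and IL2RA is one of the FOXP3-positive class, so their direction there is no separate result. They were not taken out of the counts of list genes.

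In FOXP3-positive over naïve-like cells, 25 of 83 list genes were higher and 3 lower, where 10.9% and 9.25% of all genes were, at a median of 0.27 where all genes had 0.0203. TNFRSF18 led at 7.43 (5.85 to 9.74), followed by BHLHE40 at 6.38 (4.74 to 8.70) and the marker IL2RA at 5.43 (4.80 to 6.12). Lower were ELK3, a ternary complex factor of the kind that switches FOS on or off, at -1.03, BTG2 at -0.81 and the calcineurin subunit PPP3CA at -0.65 (-2.17 to 0.57), on 6 UMIs, which turned to values from 0.21 to 0.37 under 4 other ways of placing the cells or filtering them. In cytotoxic-like over naïve-like cells, 34 of 82 were higher and 9 lower, where 25.9% and 15.0% of all genes were, at a median of 0.38 where all genes had 0.159. BHLHE40, at 9.72 (8.17 to 12.0) and 158 CPM, IFNG (interferon gamma), at 9.17 (6.68 to 14.5) on 1 UMI in naïve-like cells, and the AP-1 subunit FOSL2, at 5.50 (4.83 to 6.25), led. CD38 at -2.30, BIRC3, an NF-κB target that blocks cell death, at -1.94, and MYC at -1.87 were lowest. In cytotoxic-like cells, FOSL2 was therefore higher while FOSB was lower and FOS had a log2 ratio of -0.53.

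Between the gates, the lists were compared over all cells and within naïve-like and cytotoxic-like cells. In CD4hiCD8hi over CD4hiCD8lo, 20 of 95 list genes were higher, where 10.0% of all genes were, led by IFNG at 2.14, FOSL2 at 1.98 and BHLHE40 at 1.88, and 1 was lower, where 4.6% were, CD38 at -0.76. In CD4loCD8hi over CD4hiCD8lo, 14 of 86 were higher, where 13.0% of all genes were, led by IFNG at 3.30, BHLHE40 at 1.93 and FOSL2 at 1.75, and 16 were lower, where 14.0% were, led by CD40LG at -3.36, TNFRSF4 at -2.88 and TNFRSF18 at -2.52. Within naïve-like cells, 0 of 75 passed the limit between CD4hiCD8hi and CD4hiCD8lo, where 1.71% of all genes were higher and 2.92% lower. Within cytotoxic-like cells, of 68, BIRC3 was higher at 0.63 (-0.12 to 1.44), where 3.82% were, and it turned to -0.065 with 10 components and to -0.26 with cells placed by marker UMIs. ELK1 and ATF1, which are factors and not kinases in the list of upstream kinases and factors, were lower there at -0.63 and -0.59, where 2.4% were. In B-like cells over the 4 classes, 37 of 93 were higher and 22 lower, where 18.2% and 21.2% of all genes were, and EGR3 at 9.47 on 3 UMIs in the 4 classes, the activation marker CD83 at 5.95 and EGR2 at 5.37 led. EGR2 and EGR3 are the relatives of EGR1, and 11 of 15 other early transcription factors were higher there.

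Cells that held more of the 9 genes also held more RNA of some of the lists at the same depth. In naïve-like cells with 0 to 2, with 3 to 4 and with at least 5 of the genes, the genes of RNA decay and feedback summed to 4720, 5454 and 6161 CPM. Other early transcription factors summed to 1007, 1217 and 1490 CPM, and NF-κB genes to 507, 558 and 661 CPM. Heat shock and stress genes rose as well, at 4387, 4701 and 4926 CPM. In contrast, upstream kinases and factors were 605, 605 and 625 CPM and AP-1 relatives 19.7, 21.7 and 17.5 CPM, both with overlapping intervals. Surface and cytokine genes were 464, 496 and 518 CPM, also with overlapping intervals. The median depth before thinning was 2949, 2928 and 2904 UMIs and the median mitochondrial share 3.70%, 3.71% and 3.69%, so both were nearly alike over the 3 groups. In helper-like cells the genes of RNA decay and feedback were 4648, 5560 and 6632 CPM, and in cytotoxic-like cells 4623, 5509 and 6045 CPM.

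The genes whose levels went most with the 9 were found by the mean Pearson r with them over the 7512 thinned cells of the 4 classes, among 4121 genes. ZFP36, which makes AU-rich RNAs decay, had the highest mean r at 0.0744, followed by TSC22D3 (GILZ, a glucocorticoid target) at 0.0630, NR4A2 (a relative of NR4A1) at 0.0598, TNFAIP3 (A20, an NF-κB inhibitor) at 0.0496 and a gene with only an identifier (ENSMFAG00000039233) at 0.0494. RGCC at 0.0441, IER2 at 0.0431, DDIT4 at 0.0428 and ZFP36L2 at 0.0425 were also among the highest. The 99th percentile of all genes was 0.0208 and the median 0.000314. The values are low in sparse counts of 1 library and serve as a description. ZFP36 and TSC22D3 did not vary over the classes in the same way: ZFP36 was 1705 CPM in helper-like, 1505 CPM in FOXP3-positive and 1555 CPM in cytotoxic-like against 830 CPM in naïve-like cells, while TSC22D3 was 1579, 1748 and 1725 CPM against 2078 CPM.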

How the data were processed

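Per the labels and the study's methods, Cell Ranger 3.1.0 and STAR 2.5.1b mapped the reads to the Macaca_fascicularis_5.0 genome. The authors deposited a matrix of raw counts, 1 per UMI, for genes and tags, not normalized and unfiltered by their later steps in Seurat 3.1.3. Kept here were cells having 200 to 4000 genes and no more than 20% of UMIs from 13 mitochondrial genes. This removed 123 barcodes and left 31677119 gene UMIs. Clustering used Seurat 5.3.0 in R 4.3.3 on 2000 variable genes that excluded the early genes (20 components, 20 neighbours, resolution 0.8), and gave 17 clusters.

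A marker was carried by a cluster at 1.5 times the median CPM over clusters, after 5 was added, and a name needed 3 markers carried. For the lists outside the 4 classes, 1 marker had to stand among the 10 leading genes too. Naming rules were chosen with the clusters in view. Of the unnamed cells, 145 were too shallow for a name (median 939 UMIs).

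The genes, lists and groups were chosen with earlier results of these data known. Named are all 9 genes, per comparison the 3 list genes with the largest log2 ratio each way past 1.5-fold and with 50 UMIs, and the 10 genes with the largest mean r among those in at least 5% of cells, of which 1 is not reported here. Values outside this rule, such as those by FOXP3 or EGR1 UMI and those of ZFP36 and TSC22D3 by class, were chosen after they were seen. The gates used the thresholds given with the gene set. The crossings of 2-component mixtures, which the design had named as their source, came at 146 and 505 UMIs and were run as an alternative. Scrublet (scanpy 1.11.5) called 0 doublets and was taken not to have worked, so none were removed. Its scores are printed as a description, and the alternative without the highest scores has the same limit. Ratios have exact binomial intervals of the split of UMIs, without a pseudocount. The scripts were tested on simulated data. For the ratios and their intervals, the simulated counts held counting error only, so the spread of UMIs between cells of a group was not tested.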

Additional observations from a re-analysis of the deposited data

How the results depend on the processing

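No paired analysis was possible because the 2 libraries are of the same cells and there are no replicates, so no replicate could be left out either. Over the alternatives, 106 of 108 values of genes past 1.5-fold kept their sign and 81 stayed past it, while 17 values of genes under it came to lie past it. The summed log2 ratio of helper-like over naïve-like cells, 0.36, was 0.32 with at most 10% mitochondrial UMIs, 0.32 without a filter, 0.34 with the early genes kept in the clustering, 0.33 and 0.31 at resolutions 0.4 and 1.2, 0.26 with cells placed by marker UMIs, 0.41 as a mean over cells and 0.38 without cells with a B lineage UMI. For FOXP3-positive cells, 0.19 became 0.28, 0.29, 0.27, -0.062, 0.00307 and 0.045 under the first 6 of these, 0.032 in cells with a FOXP3 UMI and 0.24 without B lineage UMIs. For cytotoxic-like cells, -0.25 became -0.19 with 10 components and -0.30 without the 6% of cells with the highest doublet scores. For CD4hiCD8hi over CD4hiCD8lo, 0.01 became -0.0052 as a mean over cells, 0.030 with midpoint thresholds, 0.030 without the 1924 cells near a threshold and 0.036 with mixture crossings. For CD4loCD8hi, -0.29 became -0.34, -0.23 and -0.39 under the first 3 of these. Within naïve-like cells -0.09 became 0.034 with marker UMIs, and within cytotoxic-like cells 0.06 became 0.0012 without high doublet scores and 0.12 without cells near a threshold. With FOS left out of the sum, the ratios over naïve-like cells were 0.52 in helper-like, 0.45 in FOXP3-positive and 0.050 in cytotoxic-like cells, and those over CD4hiCD8lo were 0.13 in CD4hiCD8hi and -0.13 in CD4loCD8hi. The median pair ratio, 1.04, was 1.05 at resolution 0.4, without high doublet scores and without thinning, and the share with at least 3 genes was 88.0% without thinning. In CD4loCD8hi over CD4hiCD8lo, NR4A1 turned from -0.62 to 0.67 with midpoint thresholds and EGR1 from 0.65 to -1.21 without cells near a threshold. Of 301 values of list genes, 6 reversed. PPP3CA in FOXP3-positive cells turned from -0.65 to 0.28 (10% mitochondrial UMIs), 0.35 (no filter), 0.21 (early genes kept) and 0.37 (marker UMIs), and BIRC3 within cytotoxic-like cells from 0.63 to -0.065 (10 components) and -0.26 (marker UMIs). The causes were not tested. The mixture crossings, the FOXP3 UMI and B lineage UMI settings, the sum without FOS and the restriction of gates to the 4 classes were chosen after seeing the data. With 131 to 205 UMIs in naïve-like cells and 25 to 60 in the other classes, depth limits what EGR1 and NR4A1 can show between T cell classes.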
